A study of Arabidopsis thaliana with 12 samples.

Results

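A set of 30 Arabidopsis thaliana genes had transcript ratios that pointed one way in root callus and the other way in callus from the aerial organs, petal and cotyledon. The genes were chosen by their measured organ means: a mean log2 ratio of 1 or more (2-fold) in root and of -1 or less in both petal and cotyledon, among 9695 genes with 3 or 4 measured ratios in each organ. That is 0.309% of the genes. UGT84A1 and UGT85A3 also met these limits and were left out by name, as all genes with a SWEET, UGT, CYP71B, GSTU or PUB symbol were. A gene of these families listed under a locus code only was not left out, so the 30 may hold such genes.

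Each of the 12 arrays compared callus, grown for 10 days on auxin-rich callus-inducing medium, with the same organ at day 0, in plants of the Ler ecotype, with 4 biologically independent samples each for root, petal and cotyledon. Callus RNA was labelled with Cy5 in replicates 1 and 3 and with Cy3 in replicates 2 and 4. The values are log2 ratios, and callus over explant is their likely direction, which no label states. If it held explant over callus, the signs given here would all be opposite. The RNA came from bulk excised tissue or callus, amplified with T7 polymerase, so in each ratio a change in the cells present and a change in RNA per cell cannot be told apart. The number of arrays limits the precision of every value.

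Callus on auxin-rich medium is a mass of dividing cells that can regenerate shoots or roots. Explants from different organs begin with different transcripts, so the ratio of callus to explant depends on both the callus and the organ it replaced. A ratio above 0 in root and below 0 in petal and cotyledon gives the direction of change in each organ and no level in either tissue. Only 4 of the 30 genes had a symbol other than a locus code in the RefSeq gene table, and functions are given for these alone. PPDK (AT4G15530) encodes pyruvate orthophosphate dikinase, which interconverts pyruvate and phosphoenolpyruvate and is known in Arabidopsis for its part in nitrogen remobilisation from ageing leaves. NOL (AT5G04900) is the NYC1-like partner in chlorophyll b reductase, the enzyme that starts the breakdown of chlorophyll b. IDD16 (AT1G25250) is a zinc finger transcription factor of the indeterminate-domain family, known to act with close relatives on auxin synthesis and the shape of lateral organs. TBL42 (AT1G78710) belongs to the TRICHOME BIREFRINGENCE-LIKE family, several members of which acetylate cell wall polysaccharides.

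Root means of the 30 genes ran from 1.01 to 2.63 with a median of 1.38, against a median of 0.18 over all 9695 genes. Petal means ran from -4.03 to -1.06 with a median of -1.88, and cotyledon means from -5.36 to -1.11 with a median of -1.94, against medians of 0.18 and 0.13 over all genes. These values are what the rule selected on and are given as a description with no test. The root mean was the smallest of the 3 in size in 19 genes, the cotyledon mean in 6 and the petal mean in 5, so for most of them the root threshold was the closest. No measured ratio went against the mean's sign in root in 25 genes, in petal in 29 and in cotyledon in 29, and 24 genes kept the pattern on every array that measured them. Ratios at the limit were left out of these counts. The 25 and the 24 include AT1G49800, whose root replicate 2 was at the lower limit, a bound below 0 that goes against the pattern. In 5 genes every one of the 12 ratios was 1 or more in size: AT3G19850, AT3G48550, PPDK, AT3G28540 and AT3G01490. These counts use the ratios that the rule averaged, so the rule itself favours arrays of the same sign. They are a description, and the same counts over all genes were not taken.

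**Figure D1:**
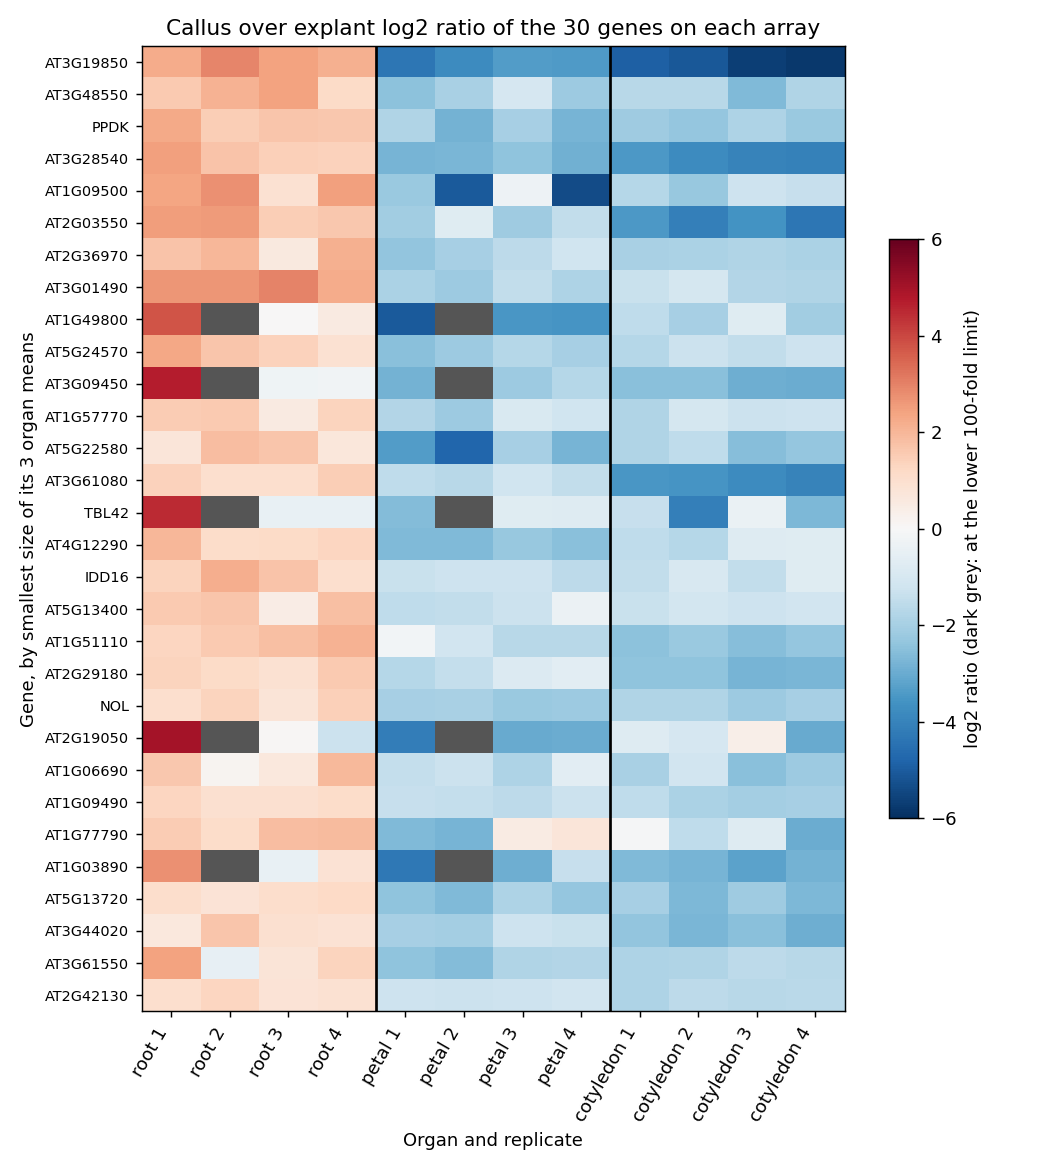
Log2 ratio of callus over explant for the 30 genes (rows, ordered by the smallest size of their 3 organ means) on the 12 arrays (columns: root, petal and cotyledon replicates 1 to 4), with red above 0, blue below 0 and dark grey at the lower 100-fold limit. In 24 genes every measured root ratio is above 0 and every petal and cotyledon ratio below it, and the 10 grey cells are root replicate 2 and petal replicate 2 of 5 genes. AT1G49800 is among the 24 although its root replicate 2 is grey, a bound below 0.

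The 4 genes with a symbol differed in how steadily they showed the pattern. PPDK stood at 2.29, 1.49, 1.68 and 1.62 on root replicates 1 to 4, at -1.79, -2.84, -1.98 and -2.79 on the petal arrays and at -2.15, -2.33, -1.86 and -2.25 on the cotyledon arrays. Its means were 1.77 ± 0.36, -2.35 ± 0.54 and -2.15 ± 0.21 (SD, n = 4 each), or 3.41-fold above the explant in root, 5.10-fold below it in petal and 4.43-fold below it in cotyledon. All root ratios of this enzyme gene lay above all of its petal and cotyledon ratios, which the rule's limits on the means favour.

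NOL had root ratios of 1.00, 1.33, 0.77 and 1.42, petal ratios of -2.00, -1.92, -2.24 and -2.16 and cotyledon ratios of -1.79, -1.83, -2.18 and -1.99. The SDs were 0.30, 0.15 and 0.18 around means of 1.13, -2.08 and -1.95 (n = 4 each), and root and aerial ratios did not overlap. The chlorophyll breakdown gene thus lay 2.19-fold above the explant in root callus and about as far below it in petal as in cotyledon callus (4.23-fold and 3.86-fold). With arrays centred on their medians, NOL no longer met the root threshold. IDD16 read 1.35, 2.17, 1.71 and 1.02 in root, -1.35, -1.24, -1.23 and -1.57 in petal and -1.50, -0.95, -1.50 and -0.72 in cotyledon. Its means of 1.56 ± 0.50, -1.35 ± 0.16 and -1.17 ± 0.39 (n = 4 each) put it close to the aerial thresholds and clear of the root threshold.

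TBL42 was of another kind. Its root ratios were 4.48, -0.44 and -0.43 on replicates 1, 3 and 4, and replicate 2 was at the lower 100-fold limit. The mean of 1.20 ± 2.84 (n = 3) therefore came from root replicate 1 alone, and the other 3 root arrays lay below 0. Petal ratios were -2.61, -0.71 and -0.79 with replicate 2 again at the lower limit, and cotyledon ratios were -1.40, -4.10, -0.39 and -2.70.

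Among the genes with a locus code only, AT3G19850 had the widest spread between organs and the largest smallest mean. Its root ratios were 2.24, 2.91, 2.41 and 2.11, its petal ratios -4.34, -3.78, -3.35 and -3.39 and its cotyledon ratios -4.90, -5.09, -5.67 and -5.79. The means of 2.42 ± 0.35, -3.72 ± 0.46 and -5.36 ± 0.43 (n = 4 each) correspond to 5.35-fold above, 13.2-fold below and 41.1-fold below the explant. The cotyledon mean was the lowest of the set, and the root mean was second to that of AT3G01490.

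AT3G01490 had root ratios of 2.65, 2.66, 2.96 and 2.24, against petal ratios of -1.90, -2.20, -1.48 and -1.83 and cotyledon ratios of -1.32, -1.03, -1.76 and -1.79. It was 6.19-fold above the explant in root (2.63 ± 0.30) and 3.61-fold and 2.78-fold below it in petal and cotyledon, and it was one of 4 genes whose root mean was the largest of the 3 in size. AT3G28540 read 2.46, 1.71, 1.41 and 1.40 in root, -2.77, -2.75, -2.40 and -2.87 in petal and -3.44, -3.78, -3.99 and -4.07 in cotyledon. AT3G48550 was nearly symmetric about 0, with means of 1.82 ± 0.56 in root, -1.90 ± 0.63 in petal and -1.95 ± 0.47 in cotyledon (n = 4 each), and its 4 root ratios lay between 1.16 and 2.43. For these genes, as for PPDK and NOL, the groups of root and aerial ratios did not overlap. The rule already set the root and aerial means apart, so this describes the spread of the arrays only.

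Further genes with a root mean over 1.5 were AT1G09500, AT2G03550, AT2G36970, AT1G51110, AT1G77790 and AT5G24570. AT1G09500 had root ratios of 2.39, 2.73, 0.91 and 2.44, with a mean of 2.12 ± 0.82, and cotyledon ratios of -1.72, -2.29, -1.23 and -1.39. In petal it spanned -2.24, -5.04, -0.31 and -5.35, and the 2 deepest values were those with callus in Cy3. AT2G03550 lay at 2.50, 2.57, 1.46 and 1.63 in root, at -2.11, -0.74, -2.11 and -1.49 in petal and at -3.44, -4.09, -3.59 and -4.32 in cotyledon. Its cotyledon mean of -3.86 ± 0.41 was 14.5-fold below the explant.

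AT2G36970 had means of 1.60 ± 0.70, -1.77 ± 0.50 and -1.89 ± 0.06, with root replicate 3 the low one at 0.58. AT5G24570 averaged 1.57 ± 0.59 in root, -2.09 ± 0.32 in petal and -1.44 ± 0.20 in cotyledon. AT1G51110 averaged 1.69 ± 0.35 in root, -1.16 ± 0.70 in petal, where replicate 1 was at -0.18, and -2.39 ± 0.16 in cotyledon. AT1G77790 was steady in root (1.53, 1.12, 1.85 and 1.90) but not in petal, where replicates 1 and 2 read -2.65 and -2.81 and replicates 3 and 4 read 0.48 and 0.74. It was the only gene of the 30 with petal ratios above 0, and its cotyledon ratios ran from -2.97 to -0.09.

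The other genes measured on all 12 arrays lay nearer the root threshold, with root means of 1.01 to 1.39. AT4G12290 (1.39 ± 0.41), AT5G13400 (1.37 ± 0.63), AT1G57770 (1.24 ± 0.48), AT2G29180 (1.23 ± 0.27), AT5G22580 (1.22 ± 0.61) and AT3G61080 (1.22 ± 0.25) had all 4 root ratios above 0. So did AT1G06690 (1.08 ± 0.83), AT1G09490 (1.07 ± 0.15), AT5G13720 (1.04 ± 0.16), AT3G44020 (1.03 ± 0.43) and AT2G42130 (1.01 ± 0.22). AT3G61550, at 1.01 ± 1.20, did not, since its root replicates read 2.42, -0.49, 0.79 and 1.32. AT5G22580 was deepest of these in petal, with -3.36, -4.76, -1.97 and -2.77, and AT3G61080 in cotyledon, with -3.49, -3.53, -3.78 and -4.01. AT2G42130 had the narrowest petal spread of the set, from -1.28 to -1.17.

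In 5 of the 30 genes the root mean rested on root replicate 1. AT1G03890, AT1G49800, AT2G19050, AT3G09450 and TBL42 were at the lower 100-fold limit on root replicate 2 and on petal replicate 2, where a ratio is a bound and was treated as missing. On root replicate 1 they stood between 2.74 and 5.01, a range above every other root ratio of theirs. AT3G09450 read 4.70, -0.27 and -0.22 on root replicates 1, 3 and 4. AT2G19050 read 5.01, 0.07 and -1.29. AT1G49800 read 3.77, 0.03 and 0.53 and AT1G03890 read 2.74, -0.44 and 0.87.

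Their root SDs ran from 1.60 to 3.32 (n = 3), against 0.15 to 1.20 (n = 4) for the other 25 genes. Without root replicate 1 none of the 5 met the root threshold, and the root means of AT3G09450 (-0.24), TBL42 (-0.44) and AT2G19050 (-0.61) lay below 0. With limited ratios kept at their limits all 5 root means were below 0, from -0.87 in AT1G03890 to -0.58 in AT1G49800. The pattern of these 5 genes is thus that of 1 root array, while their petal and cotyledon means ran from -4.03 to -1.11. AT1G06690 and AT3G61550 also dropped under the root threshold without root replicate 1, which left 23 of the 30.

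**Figure D2:**
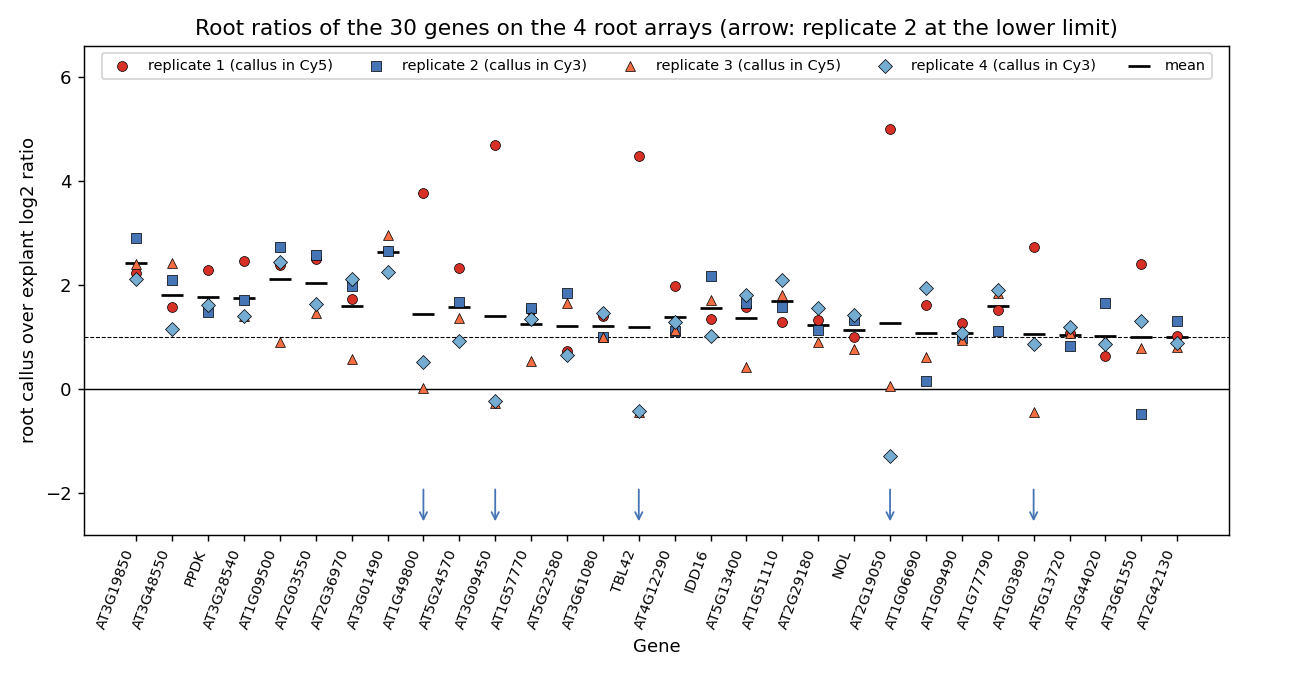
Log2 ratio of root callus over root explant (vertical axis) for the 30 genes, one symbol per root replicate, a bar for the mean and a dashed line at the threshold of 1. Blue arrows mark the 5 genes at the lower limit on replicate 2, whose replicate 1 lies between 2.74 and 5.01 while replicates 3 and 4 are all under 1.

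Of the 9695 genes, 134 (1.38%) were at the lower limit on root replicate 2. On root replicate 1, 50 of these (37.3%) had a ratio of 1 or more and 84 did not, against 13.7% of all 9695 genes with such a ratio. In 47 of the 50 both other root arrays were under 1, against 391 of the 1331 genes with that ratio over the whole table. Whether the arrays' signal over background differed was not tested, since intensities were not used here.

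The rule set bounds on the petal and cotyledon means but not on which of them was lower, so their difference was tested with limma over all 9695 genes. Of the 30 genes 11 differed between petal and cotyledon callus at an adjusted p under 0.05, or 36.7%, against 49.5% of all genes. In 9 of them the petal ratio was higher, that is, nearer 0, and in 2 it was lower, against 30.8% and 18.8% of all genes in these directions. The 30 genes had median SDs of 0.50 in root, 0.51 in petal and 0.31 in cotyledon. Over all genes these were 0.28, 0.35 and 0.25. With only the cotyledon and petal arrays in the fit, 13 of the 30 genes and 4591 of the 9695 were called. The calls added among the 30 were AT5G24570 (-0.66, limma adjusted p = 0.0263) and AT2G19050 (-2.41, 0.0406). The part of the wider spread in the share of calls was not tested. AT3G61080 and AT2G03550 had the largest differences in favour of petal. AT3G61080 averaged -1.45 ± 0.19 in petal and -3.70 ± 0.24 in cotyledon, a difference of 2.25 (95% interval 1.87 to 2.63, limma adjusted p = 7.16e-06). AT2G03550 averaged -1.61 ± 0.65 in petal and -3.86 ± 0.41 in cotyledon, a difference of 2.25 (1.41 to 3.08, limma adjusted p = 0.000752).

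AT3G19850 (1.64), AT2G29180 (1.45), AT1G51110 (1.24), AT3G28540 (1.12) and AT3G44020 (0.96) were likewise less far below 0 in petal than in cotyledon. AT1G09490 (0.45) and AT2G42130 (0.43) showed small differences of the same sign. In the other direction stood AT4G12290, with petal ratios of -2.66, -2.66, -2.29 and -2.52 and cotyledon ratios of -1.52, -1.70, -0.75 and -0.71, a difference of -1.36 (95% interval -1.95 to -0.77, limma adjusted p = 0.00187). AT1G49800 was also lower in petal, by a difference of -2.54 (-4.53 to -0.55, limma adjusted p = 0.0392). This call was lost with the replicate number as a block (-2.59, limma adjusted p = 0.0821) and with limited ratios kept (-3.10, limma adjusted p = 0.219). Petal and cotyledon arrays did not overlap in 11 of the 30 genes, against 42.9% of all genes. These were 10 of the 11 called genes, all but AT1G09490, and AT5G24570.

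Of the called differences, 9 kept their call whichever single array was left out. That of AT1G49800 was lost without root replicate 4, petal replicate 1 or 3 or any single cotyledon array, with differences from -2.71 to -1.94 and limma adjusted p from 0.0565 to 0.137. That of AT1G09490 was lost without petal replicate 2 or 4 or cotyledon replicate 2, 3 or 4, at 0.39 to 0.45 (limma adjusted p 0.0516 to 0.0687). Conversely, without petal replicate 3 the calls for AT1G09500 (-2.46, limma adjusted p = 0.0193) and AT5G22580 (-1.59, 0.0292) were made. So were those for AT5G24570 (-0.66) without root replicate 1 (0.0309) or 4 (0.0475) and for AT2G19050 (-2.43, 0.0257) without root replicate 1.

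The remaining 19 genes had differences between -2.55 and 0.63 that did not pass. Among the named genes, the differences of NOL (-0.13, 95% interval -0.46 to 0.20), IDD16 (-0.18, -0.74 to 0.38) and PPDK (-0.20, -0.60 to 0.19) excluded a change of 2-fold between petal and cotyledon. TBL42 (0.52) had an interval from -2.32 to 3.36, which leaves a difference of either sign possible.

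**Figure D3:**
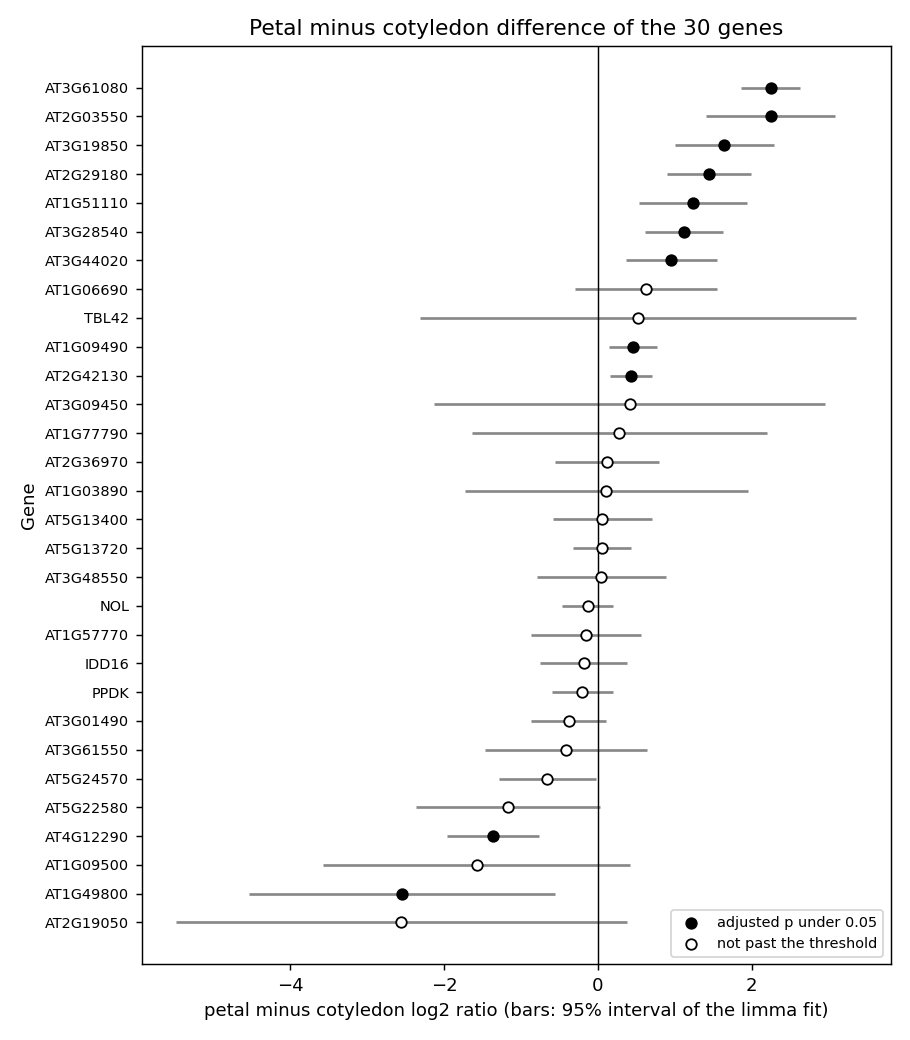
Petal minus cotyledon difference in log2 ratio (horizontal axis) of the 30 genes (vertical axis), with the 95% interval of the limma fit over all 12 arrays. Filled points passed an adjusted p of 0.05: 9 lie above 0 and 2, AT4G12290 and AT1G49800, below it.

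The dye was the other measure that the rule did not use. No gene of the 30 had a dye term, the ratio with callus in Cy5 minus that with callus in Cy3, at a limma adjusted p under 0.05, against 3.62% of all genes, and 2 had an unadjusted p under 0.05. These were PPDK, at 0.55 (limma adjusted p = 0.0656), and AT5G13720, at 0.34 (0.187). In PPDK both Cy5 arrays lay above both Cy3 arrays in every organ, and its call was made with limited ratios kept (limma adjusted p = 0.0493, again at 0.55). The median size of the dye term was 0.24 in the 30 genes and 0.22 over all genes. The largest terms were those of AT2G19050 (1.71) and TBL42 (1.53), whose replicates lie far apart in root and cotyledon. The Cy5 and Cy3 means of AT2G19050 were 2.54 and -1.29 in root and -0.19 and -2.03 in cotyledon. Those of TBL42 were 2.02 and -0.43 in root and -0.90 and -3.40 in cotyledon. In petal the Cy5 mean was the lower one in both (-3.58 and -2.98, -1.66 and -0.79).

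**Figure D4:**
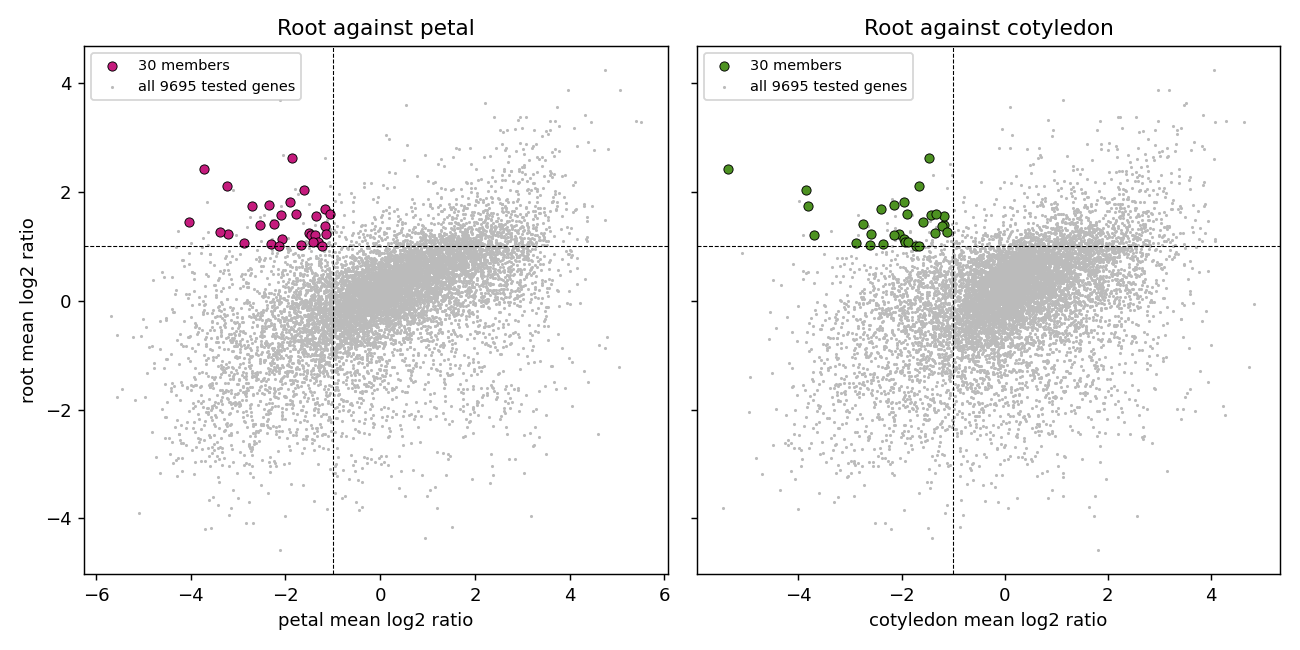
Mean log2 ratio in root (vertical axis) against that in petal (left) and in cotyledon (right) for the 9695 genes (grey) and the 30 chosen genes (coloured), with dashed lines at the thresholds of 1 and -1. Grey points beyond both lines of a panel met the limits in that organ pair only or are the UGT genes left out by name.

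Mixed signs were less common than 1 sign in all 3 organs. At a mean of 1 or more in size in every organ, 631 genes were above 0 and 498 below 0 in all 3. The pattern described here was held by 32, with UGT84A1 and UGT85A3 counted. The mirror pattern, below 0 in root and above 0 in petal and cotyledon, held 84 genes, or 81 after the same names were left out. The remaining mixed combinations held 36, 19, 18 and 14 genes. The number of genes with the pattern fell off with the threshold: 156 at 0.5, 30 at 1, 7 at 1.5 and 1 at 2, which was AT3G19850. Just inside the limits were AT2G42130, AT3G61550 and AT3G44020, with root means of 1.01, 1.01 and 1.03. Just outside were AT5G44900, whose root mean of 1.00 is rounded from a value under the threshold, AT5G26150, with a root mean of 0.98, and AT4G18860, with a petal mean of -0.96.

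AT1G09490 and AT1G09500 are neighbours in the gene order of assembly TAIR10.1, the only adjacent pair among the 30. The next gene in the row, AT1G09510, had means of 0.52 ± 0.84 in root, -3.93 ± 2.30 in petal and -1.14 ± 0.87 in cotyledon, the same signs with a root mean under the threshold. AT1G09500 and AT1G09510 also shared wide petal spreads, with SDs of 2.40 and 2.30, while AT1G09490 had a petal SD of 0.11. Whether signal crosses between the probes of these loci was not tested, because no probe sequence was used. Of 19 tested neighbours that were not themselves in the set, 4 had a mean above 0 in root and below 0 in petal and cotyledon (21.1%), against 11.1% of all tested genes. Besides AT1G09510 these were AT5G13410, beside AT5G13400, at 0.75, -1.65 and -2.21, CRR41, beside AT1G51110, at 0.53, -0.71 and -1.52, and AT1G77800, beside AT1G77790, at 0.40, -0.49 and -0.63. The set had 10 genes on chromosome 1, 5 on chromosome 2, 8 on chromosome 3, 2 on chromosome 4 and 5 on chromosome 5.

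The 3 root arrays of TBL42 other than replicate 1 lay below 0, so its relatives are given without a contrast to it. Of 13 other tested genes with a TBL symbol, looked up after the 30 genes were known, 0 were higher and 7 lower in root callus at a limma adjusted p under 0.05, against 39.9% and 23.0% of all genes. In petal callus 3 were higher and 6 lower (45.3% and 33.4% of all genes), and in cotyledon callus 4 were higher and 7 lower (40.7% and 30.3%). TBL45 (AT2G30010) came nearest to the pattern, at 0.42 ± 0.10 in root, which did not pass, -3.40 ± 0.89 in petal and -1.91 ± 0.25 in cotyledon. No other gene with a symbol beginning in IDD was tested, and relatives of IDD16 under other symbols were not looked for. There were 101 genes in 5 lists of cuticle, flavonoid, jasmonate, cytokinin and abscisic acid or cold response genes. Of these 6 were tested, none of them a flavonoid or jasmonate gene, and none was among the 30. So few genes cannot describe the lists.

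The green tissue markers LHB1B2, PSAN, RCA, SBPASE, PSBY and ATPC1 were lower in callus of all 3 organs, 6 of 6 in each, with median ratios of -2.08 in root, -3.51 in petal and -3.34 in cotyledon. In petal and cotyledon they moved the same way as the 30 genes, and in root the opposite way. Their part in the aerial ratios was not tested. Of 8 root markers 2 were tested. EXPA7, a root hair expansin gene, was higher in petal callus (1.72 ± 0.26, limma adjusted p = 3.11e-05) and cotyledon callus (1.75 ± 0.39, 3.6e-05), and its root mean of -0.25 ± 0.68 did not pass (n = 4 each). Its aerial ratios thus had the opposite sign to those of the 30 genes. EXPA18, at 0.57 in root, 0.71 in petal and -0.60 in cotyledon, passed in no organ. Of 6 petal markers RBE was tested, and its means of 0.32 in root, -0.74 in petal and 1.31 in cotyledon did not pass. These are too few genes to check the organs' identity.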

How the data were processed

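The authors deposited 1 table of log2 ratios, a unit read from the values, for 12 arrays with 2 colours. For the scanner, background correction, normalization, centring and ratio direction, a statement was not given in the sources used here. Ratios of 100-fold or more in size (6.64 on the log2 scale) are bounds and were set to missing. Probes were named from the platform's table and matched to RefSeq, and averaged per gene. All 187 tested genes with several probes had identical deposited values on them, so several probes are no separate check. Genes measured on at least 3 arrays of every organ were kept.

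Organ means and SDs are plain. limma 3.58.1 in R 4.3.3 (lmFit, eBayes) fitted 1 coefficient per organ and a dye term over all 12 arrays, tested on simulated data, with 2-sided Benjamini-Hochberg adjusted p-values over 9695 genes and 95% intervals. Array groups came from the titles. The members, lists and tests were chosen with earlier results of these data known. The rule for named genes took the 15 members with the largest smallest mean in size, members with a symbol, called differences (the 6 largest each way), members nearest the thresholds and neighbours; the others are given by mean or range. Protein, promoter and probe sequences were not used here.

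Deviations of same-numbered petal and cotyledon arrays correlated between 0.18 and 0.29 over 8974 genes in all 4 pairs. The number also fixes the dye, so these values cannot tell a pairing from the dye. Differences between arrays of the same dye correlated at 0.06 (replicates 1 and 3) and -0.04 (2 and 4) for petal with cotyledon. For root with petal they correlated at 0.07 and 0.27, and for root with cotyledon at -0.16 and 0.03. The numbers were therefore not taken as an established pairing, and blocked values are given where they change a call. By number, root deviations correlated with those of the other organs at -0.02 to 0.30. Alternatives were the treatment of limits, filter, centring, median, dye, replicate block, probes and leaving out arrays.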

Additional observations from a re-analysis of the deposited data

Results flagged for a closer look

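Of 80 sets of 4 arrays of a gene and organ examined, 2 held an array whose gap to the others exceeded Dixon's limit, where chance flags about 1 in 20. AT3G48550 read -2.64 on cotyledon replicate 3, against -1.78 to -1.67 on the other cotyledon arrays. AT5G13400 read 0.43 on root replicate 3, against 1.58 to 1.82 on the other root arrays.

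The callus ratio differed between petal and cotyledon in 11 genes by the limma contrast. The petal minus cotyledon difference was 2.25 in AT3G61080, 2.25 in AT2G03550, 1.64 in AT3G19850, 1.45 in AT2G29180, 1.24 in AT1G51110, 1.12 in AT3G28540, 0.96 in AT3G44020, 0.45 in AT1G09490 and 0.43 in AT2G42130, and it was -1.36 in AT4G12290 and -2.54 in AT1G49800.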

How the results depend on the processing

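The rule gave 431 genes in place of 30 with limited ratios kept, 25 of them among the 30, and 207 on arrays with callus in Cy5 alone, with 23 of the 30. The filter changed with these settings. Limited ratios, when kept, counted as measured, and 1 measured array per organ was enough with a single dye. The counts therefore do not show the effect of limits or dye alone. Leaving out single arrays gave 25 to 53 genes, the most without root replicate 2, with at least 23 of the 30 kept. There 2 measured arrays were enough in the organ that lost an array. All other alternatives to the rule gave 23 to 36 genes, and centring kept 22 of the 30, with medians of arrays moving by -0.25 to 0.25. Without root replicate 1 the root means of AT3G09450 (-0.24), TBL42 (-0.44) and AT2G19050 (-0.61) changed sign, and likewise without root replicates 1 and 2, a choice made after seeing the data. Over single root arrays left out, the root means ran from -0.24 to 2.24 in AT3G09450, from -0.44 to 2.02 in TBL42 and from -0.61 to 2.54 in AT2G19050. With the median over arrays AT3G09450 (-0.22) and TBL42 (-0.43) did. With limited ratios kept, AT1G49800 (-0.58), AT3G09450 (-0.61), TBL42 (-0.76), AT2G19050 (-0.71) and AT1G03890 (-0.87) did. On arrays with callus in Cy3 alone, AT3G09450 (-0.22), TBL42 (-0.43) and AT2G19050 (-1.29) were below 0 in root, where replicate 4 was their 1 measured Cy3 array. No other organ mean of the 30 genes changed sign under these settings.

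With the replicate block, which holds the dye, 4675 genes and 10 of the 30 differed between petal and cotyledon, and AT1G49800 lost its call (-2.59, limma adjusted p = 0.0821). The block changed no other call among the 30, and no called difference changed sign under any alternative. With centring AT1G09490 (0.45, 0.117) and AT2G42130 (0.42, 0.0728) lost theirs. AT1G49800 also lost its call with limited ratios kept (-3.10, limma adjusted p = 0.219) and with no filter (-2.54, 0.0556). Without root replicate 2 and petal replicate 2, AT1G49800 (-2.54, limma adjusted p = 0.0501) and AT1G09490 (0.45, 0.0734) lost theirs. The dye term passed in 351 genes, and in 1480 with limited ratios kept, among them 1 of the 30. It passed in 210 with no filter, 116 with centring, 133 without root replicate 2 and petal replicate 2 (chosen after seeing the data) and 104 to 356 without single arrays. The filter, and so the genes tested, also differed with limits kept, with no filter and with arrays left out. The cause of these shifts was not tested. Protein identity and promoter motifs were not run.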

Other observations

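The pattern was not limited to probes with a gene name. Among probes without one, 27 of 8287 measured probes (0.326%) met the same limits, against 35 of 9886 named probes (0.354%). The 134 genes at the lower limit on root replicate 2 included 73 also at the lower limit on petal replicate 2. The 5 genes described above were among them, and the share of all genes at that petal limit was not counted. Of the 134 genes, 16 had a root mean of 1 or more, a level that 11.9% of all tested genes reached.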
